A study of Homo sapiens with 4 samples.

Results

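MM.1S cells carrying a hairpin RNA against MIF were compared with MM.1S cells carrying a control hairpin. MM.1S is a human cell line of multiple myeloma, a cancer of antibody-secreting plasma cells. The comparison uses 2 of the 4 whole-transcript microarrays of the study, chosen by their titles as MIF-KO MM.1S and CTR-KO MM.1S, and the other 2 hold the same pair of conditions in the myeloma line ARP-1. The titles, genotype labels and descriptions of both MM.1S arrays name the same condition. Per the labels' protocols, both MM.1S cultures grew in RPMI1640 with fetal bovine serum, penicillin and streptomycin. Both received a lentivirus, with either control or MIF short hairpin RNA, and GFP-positive cells were sorted. A hairpin lowers a transcript without removing the gene, so "KO" stands here for a knockdown. Each side is 1 array of sorted cells, with no replicate, so every difference below is a description without an error or a test. The sequence of the hairpins is not given in the sources used here, and effects of lower MIF cannot be told apart from other effects of its hairpin.

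MIF, macrophage migration inhibitory factor, is a small secreted cytokine of immune and tumour cells. It binds the surface protein CD74, which signals together with CD44, and also chemokine receptors such as CXCR4. In myeloma, tumour cells lodge in the bone marrow through adhesion molecules and chemokine receptors, and grow there on interleukin-6 and other signals from stromal cells. The question posed by the design is which transcripts differ in myeloma cells when MIF is lowered.

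Levels are linear intensities of probe sets, as deposited, and differences are MIF-KO minus CTR-KO of their log2 values. Where a gene has a pair of intensities, the first is from the CTR-KO and the second from the MIF-KO MM.1S array. An intensity depends on the probes as well as on the transcript, so levels of different genes are not set against each other. In bulk RNA, fewer cells expressing a gene and less RNA per cell cannot be told apart. One probe set stood for each of 14884 named genes. The 7442 genes whose mean over the 4 arrays lay at or above the median of all genes (a log2 value of 4.97, or an intensity of 31.3) were retained for counting. A gene low on one MM.1S array could enter through its level on the other, so counts over retained genes describe those genes alone.

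The MM.1S arrays carried the markers of plasma cells. All 8 measured plasma cell markers, of 13 listed, lay at or above the retention level, and their intensities summed to 6975 in CTR-KO and 6870 in MIF-KO cells. IRF4, a transcription factor that myeloma cells depend on, had an intensity of 3853 with the control hairpin and 3834 with the MIF hairpin. It made up most of both sums, which hide differences of single markers. SDC1 and CD38 differed by 0.48 and 0.46 on the log2 scale and MZB1 by -0.63. POU2AF1, at 37.3 and 32.7, lay close to the retention level. MAF, the oncogene that a translocation activates in MM.1S, was present at 786 with the control hairpin and 541 with the MIF hairpin. The arrays titled CTR-KO and MIF-KO ARP-1 had 533 and 783, so the MAF level does not separate the lines here. Of markers of other cells, 1 of 7 for B cells, 2 of 8 for T and natural killer cells, 1 of 7 for monocytes, 3 of 6 for epithelium, 0 of 3 for fibroblasts and 0 of 2 for erythroid cells lay at or above that level in the mean of both MM.1S arrays. Among them were NCAM1, also carried by many myeloma cells, at 246 with the control hairpin and 167 with the MIF hairpin, and the epithelial genes KRT18 at 203 and 161 and CLDN3 at 115 and 94.7. BANK1, a B cell marker, was at 35.6 and 15.8 (log2 difference -1.18) and GNLY, of natural killer cells, at 22.96 and 35.5 (log2 difference 0.63). The summed intensities were 133 and 115 for B cells, 388 and 328 for T and natural killer cells, 117 and 111 for monocytes, and 381 and 331 for epithelium. Their part in the differences below was not tested.

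The distances between the arrays did not follow the cell lines. The MM.1S arrays differed at least 1.5-fold for 596 retained genes (8.01%). The CTR-KO MM.1S array differed from the MIF-KO ARP-1 array for 494 genes (6.64%), 2 of them at least 4-fold, and from the CTR-KO ARP-1 array for 1663 genes. For ARP-1, the description of each array contradicts its title as to which hairpin it had. Every value of MIF-KO minus CTR-KO in ARP-1 given below follows the titles, and its sign would turn with the descriptions. The CTR-KO ARP-1 array differed from the MIF-KO MM.1S array for 778 genes and from the MIF-KO ARP-1 array for 1697. Why arrays labelled as different lines lie so close was not tested. The labels alone tie each MM.1S array to its line. If either were of the other line, every difference below would compare lines as well as hairpins. The MM.1S differences use the ARP-1 arrays only in choosing probe sets and retained genes, by means over all 4 arrays that an exchange of ARP-1 arrays leaves as they are.

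MIF itself was lower on the MIF-KO array, as its label says. Its probe set had an intensity of 1012 with the control hairpin and 405 with the MIF hairpin, which is 40% of control and a log2 difference of -1.32. Among retained genes its difference ranked 9 from the lowest. It was -1.35 with the array medians made equal, -1.35 after quantile normalization and -1.29 with a pseudocount of 16. The other processing alternatives, level filters and the mean of probe sets, cannot move it, since MIF has 1 probe set. In ARP-1 the MIF intensities were 1092 for CTR-KO and 541 for MIF-KO. The highest MIF value in MM.1S thus came from the control, as it did in ARP-1 by the titles.

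Over all 7442 retained genes, 381 (5.12%) had an intensity at least 1.5-fold higher with the MIF hairpin and 215 (2.89%) at least 1.5-fold lower. At least 2-fold, 46 genes (0.618%) were higher and 36 (0.484%) lower, and 0 genes in either direction reached 4-fold. The split at 2-fold turned with scaling: it was 37 higher and 40 lower with the array medians made equal, and 35 and 41 after quantile normalization. At 1.5-fold the higher genes outnumbered the lower under both scalings, with 336 against 246 and 320 against 260. The median difference over retained genes was 0.036, the median absolute difference was 0.201, and 4098 genes (55.1%) lay above 0. The share past 1.5-fold ranged from 3.49% to 6.40% for higher and from 2.31% to 3.55% for lower genes over 4 equal classes of the mean intensity.

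**Figure D1:**
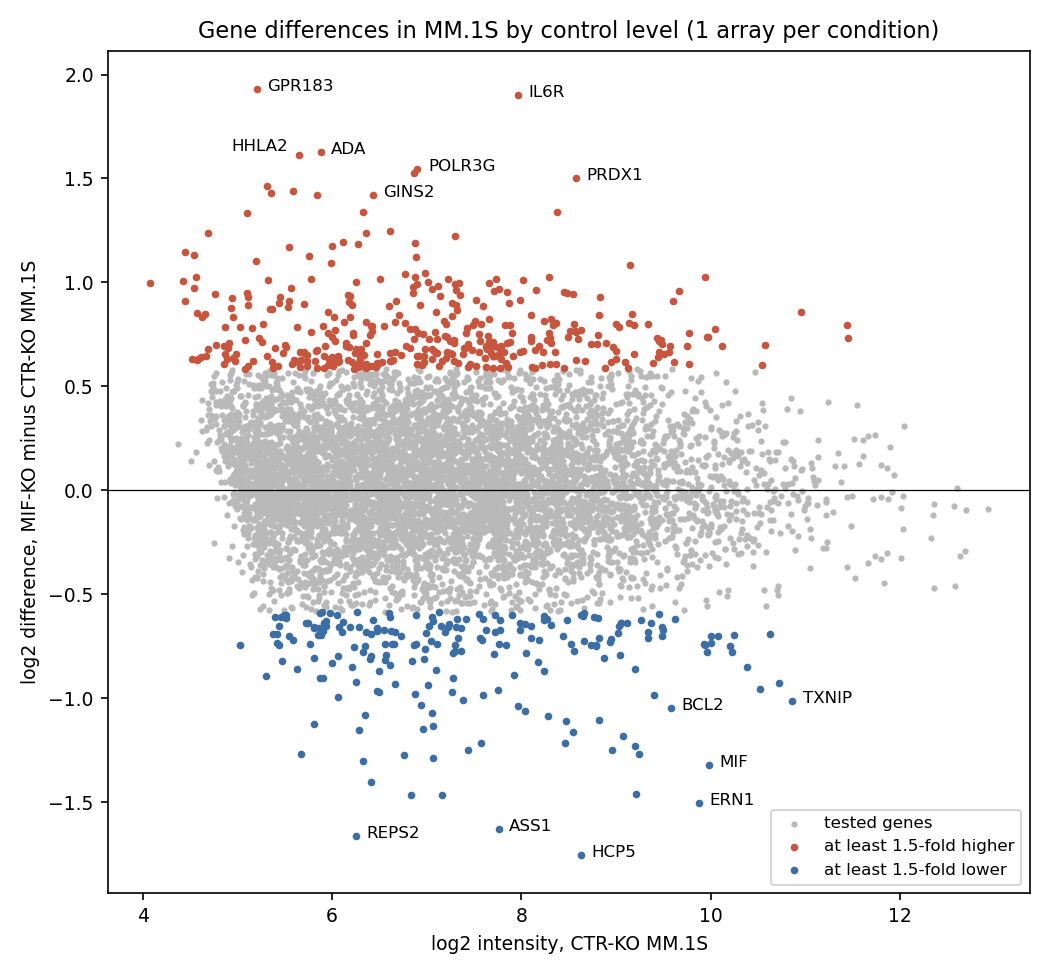
Log2 difference, MIF-KO minus CTR-KO MM.1S (vertical axis), against the log2 intensity on the CTR-KO array (horizontal axis) for the 7442 retained genes, 1 array per condition; red points are the 381 genes at least 1.5-fold higher and blue points the 215 at least 1.5-fold lower. GPR183 and IL6R stand highest at 1.93 and 1.90, HCP5 lowest at -1.75, and MIF lies at -1.32.

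Of the known partners of MIF that were retained, PRDX1 and TXNIP alone were at least 1.5-fold apart. CXCR4 had intensities of 419.8 and 385 (log2 difference -0.12), and CD44 of 104 and 139 (log2 difference 0.43). CD74 was not analysed here. DDT, the close homologue of MIF, was at 113 and 146 (log2 difference 0.36). PRDX1, a peroxiredoxin that removes hydrogen peroxide and binds MIF, was at 383 and 1084 (log2 difference 1.501). TXN, thioredoxin, was at 1841 and 2503 (log2 difference 0.44), and TXNIP, the protein that binds and inhibits thioredoxin, was at 1858 and 919.8 (log2 difference -1.01). A second TXNIP probe set gave -1.33. Of the 16 genes in this list, MIF among them, 10 were retained, with 1 (10%) at least 1.5-fold higher and 2 (20%) lower, MIF and TXNIP. Over all retained genes, 5.12% were higher and 2.89% lower.

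The 15 highest genes included 4 for receptors and surface proteins of immune cells. GPR183 (EBI2), an oxysterol receptor that positions B cells in lymphoid tissue, had an intensity of 36.9 with the control hairpin and 141 with the MIF hairpin, a log2 difference of 1.93. IL6R, the receptor chain that binds interleukin-6, was at 249.7 and 932 (log2 difference 1.90). HHLA2, a B7-family ligand of T and natural killer cell receptors, was at 50.1 and 153 (log2 difference 1.61). NRROS, a membrane protein that anchors latent TGF-beta, was at 34.5 and 86.8 (log2 difference 1.33). For each of these genes the MIF-KO array held at least 2-fold the control intensity. The largest difference, that of GPR183, starts from a control intensity close to the retention level, whereas that of IL6R does not.

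Enzymes formed another part of the 15 highest. ADA, adenosine deaminase, which turns adenosine into inosine, was at 59.03 and 183 (log2 difference 1.63). GLDC, the glycine decarboxylase that feeds one-carbon metabolism, was at 333 and 841 (log2 difference 1.34). POLR3G, a subunit of RNA polymerase III, which transcribes transfer RNAs and other short RNAs, was at 119.7 and 349 (log2 difference 1.55). PRDX1 also belongs to this set, with the values given above. All 4 enzymes were brighter on the MIF-KO array.

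Another 4 of the 15 highest act in dividing cells. GINS2, a subunit of the helicase that unwinds DNA at the replication fork, was at 86.1 and 231 (log2 difference 1.42). DSCC1, part of a clamp loader that joins replication to sister chromatid cohesion, was at 39.7 and 109 (log2 difference 1.46). CDCA7, a partner of a chromatin remodeller, was at 48.1 and 131 (log2 difference 1.44). CENPH, a kinetochore protein of the centromere, was at 80.4 and 203 (log2 difference 1.34). The remaining members of the 15 were BRI3BP with a difference of 1.53, the actin-like cancer-testis gene ACTL8 with 1.43, and the signalling adaptor AFAP1L2 with 1.25.

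Among lower genes the lead was HCP5, a long noncoding RNA of the major histocompatibility region. Its intensity was 397 with the control hairpin and 118 with the MIF hairpin, a difference of -1.75, and its other probe sets gave -1.59 and -1.79. REPS2, an EH-domain protein of receptor endocytosis, was at 76.2 and 24.1 (log2 difference -1.66). ASS1, which makes argininosuccinate on the way to arginine, was at 217 and 70.3 (log2 difference -1.63). ERN1 (IRE1-alpha), the endoplasmic reticulum sensor that splices XBP1, was at 937 and 330.3 (log2 difference -1.50). XBP1, by 1 probe set, was at 1096 and 1056 (log2 difference -0.05), a value that does not separate spliced from unspliced RNA. ERN1 and ASS1 were thus among the dimmest relative to control, and splicing of XBP1 was not measured.

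JUN, an AP-1 transcription factor, was at 593 and 215 (log2 difference -1.46). VTRNA1-3, a vault RNA transcribed by RNA polymerase III, was at 114 and 41.3 (log2 difference -1.47). Receptors were also among the 15 lowest. IL21R, the receptor of interleukin-21, was at 498 and 209 (log2 difference -1.25). CD160, a receptor of natural killer and T cells, was at 589 and 251 (log2 difference -1.23), and the tetraspanin TSPAN33 was at 607 and 252 (log2 difference -1.27). Each of these 5 genes was at least 2-fold dimmer on the MIF-KO array. The remaining genes were LGALS17A, SNN, TLCD2, PLCL1 and TMEM140, with differences of -1.41, -1.30, -1.29, -1.27 and -1.22.

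**Figure D2:**
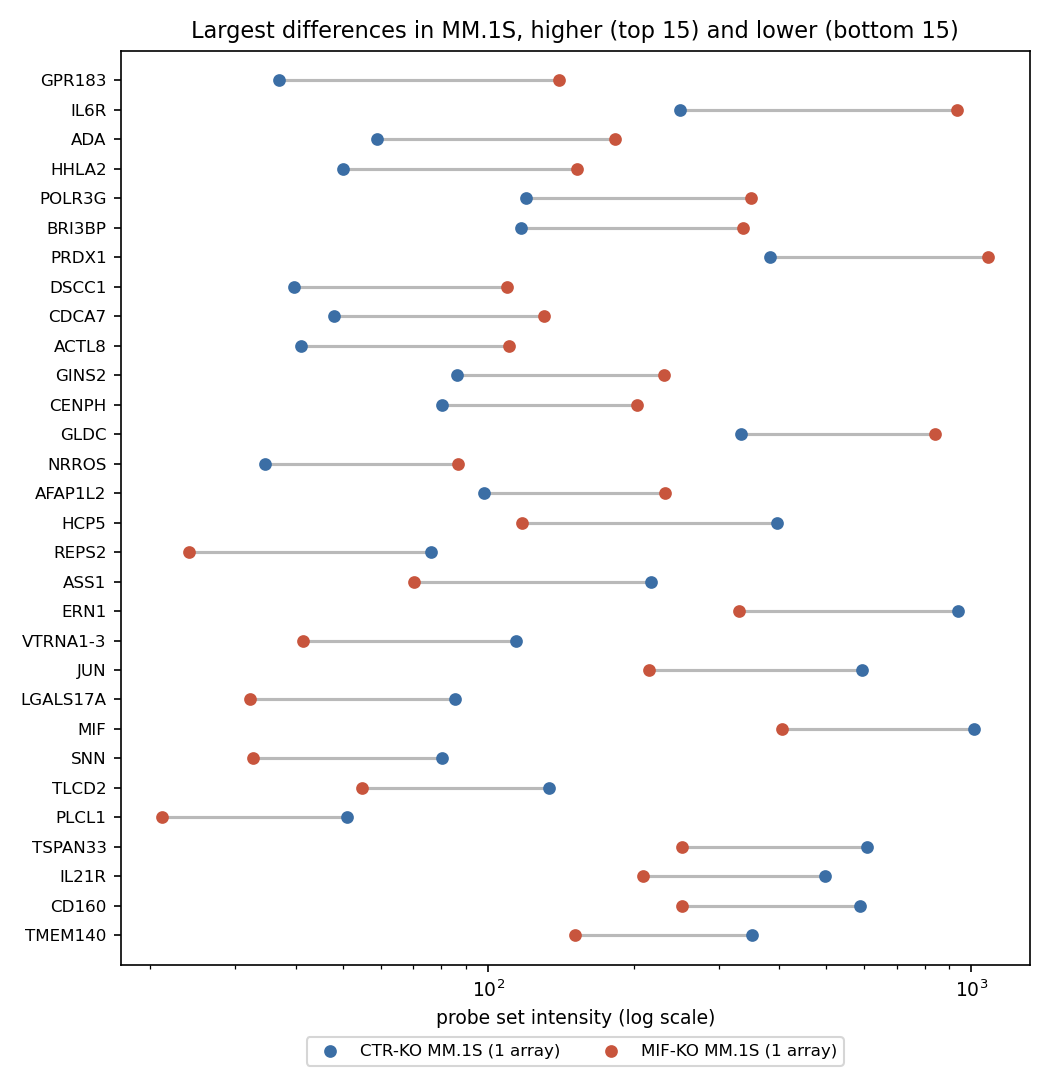
Probe set intensity (horizontal axis, log scale) of the 15 genes with the largest difference in each direction, with CTR-KO MM.1S in blue and MIF-KO MM.1S in red, 1 array each. The gap between points is the comparison and positions along the axis are not comparable between genes: IL6R runs from 249.7 to 932 and HCP5 from 397 down to 118.

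DNA replication was the gene list with the largest shift. Replication origins are licensed when the MCM helicase is loaded by CDC6 and CDT1, the helicase is switched on by CDC45 and the GINS complex, and the clamp PCNA then holds polymerases and flap enzymes on the DNA. Of 60 listed genes, 30 were named and all 30 were retained. All 30 lay above 0, and 23 (76.7%) were at least 1.5-fold higher, against 5.12% of all retained genes, with a median of 0.75 against 0.036. The other 30 listed genes, among them the origin recognition subunits and the polymerases alpha, delta and epsilon, were not analysed here. The list median was 0.72 under both scalings.

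Most genes grouped under licensing were higher, with exceptions. Of 10 retained in this group, 8 were at least 1.5-fold higher, with a median of 0.74. MCM2 had intensities of 285 and 555 (log2 difference 0.96), MCM4 of 577 and 1037 (log2 difference 0.85) and MCM5 of 330.5 and 577 (log2 difference 0.80). MCM3 and MCM7 differed by 0.79 and 0.73. MCM8 and the MCM-binding protein MCMBP, grouped here but outside the MCM2 to MCM7 ring, differed by 0.76 and 0.70. The sixth subunit of the same ring, MCM6, differed by only 0.20 (708 and 814). CDC6 differed by 0.67, whereas CDT1, the other loader, differed by 0.30.

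Helicase activation showed the widest spread, with 6 of 10 genes at least 1.5-fold higher and a median of 0.64. GINS2 and GINS4 differed by 1.42 and 0.91, GINS1 by 0.58, just within 1.5-fold, and GINS3 by 0.21. MCM10, which helps the helicase start, was at 455 and 869 (log2 difference 0.93), and CDC45 was at 160.3 and 293 (log2 difference 0.87). CDC7, the kinase that triggers the helicase, differed by 0.67, while its activating subunit DBF4 differed by 0.10. TOPBP1 and TICRR, which bring CDC45 to the origin, differed by 0.61 and 0.40. Subunits of one complex thus differed unequally, from 0.21 to 1.42 for GINS.

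At the fork, 4 of 5 stability genes were past 1.5-fold. TIPIN, which with TIMELESS steadies stalled forks, was at 117 and 268 (log2 difference 1.19). TIMELESS differed by 0.84, WDHD1 by 0.68 and CLSPN, the mediator of the replication checkpoint, by 0.46. All 3 retained synthesis genes were higher. PCNA was at 648 and 1126 (log2 difference 0.80), while DNA2 and FEN1, nucleases that trim flaps, differed by 0.80 and 0.68. UHRF1, which carries DNA methylation over to the new strand, was at 150.03 and 303 (log2 difference 1.02), and DTL, which marks CDT1 for destruction, was at 1004 and 1674 (log2 difference 0.74).

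**Figure D3:**
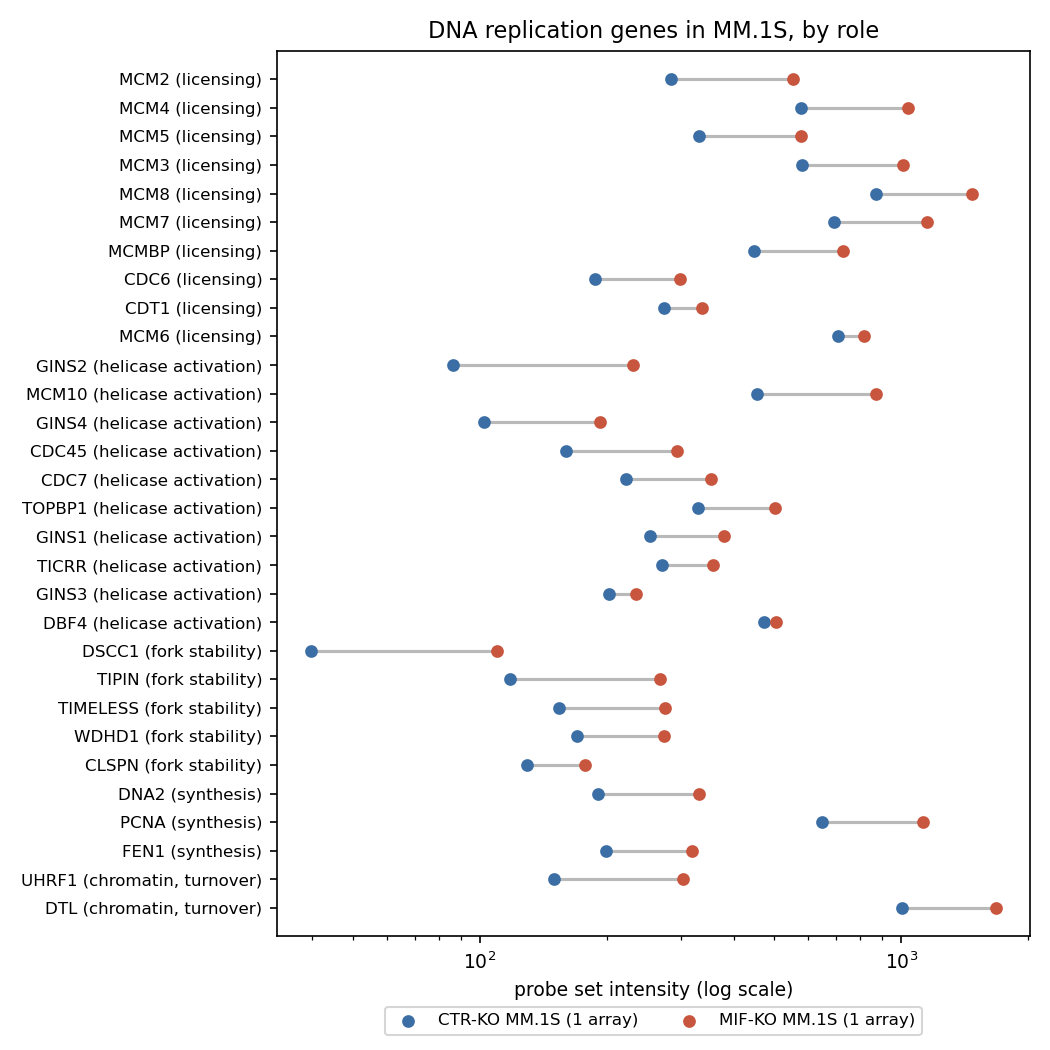
Probe set intensity (horizontal axis, log scale) of the 30 retained DNA replication genes grouped by role, with CTR-KO MM.1S in blue and MIF-KO MM.1S in red, 1 array each. Every red point lies to the right of its blue point, by 1.46 for DSCC1 on the log2 scale and by 0.10 for DBF4.

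The promoters of the replication genes were read for the E2F motif, the word bound by the factors that switch genes on at entry into S phase. The share of a list that holds a word is a property of the genes listed. It would be the same whatever the arrays showed. The words TTTCCCGC, TTTCGCGC, TTTGCCGC and TTTGGCGC were sought on both strands in the 250 bases before the first listed RefSeq start of each gene (GRCh38.p14). A match is a description of letters and no evidence of binding. Of 25 retained replication genes with a promoter sequence, 8 (32%) held a word, against 4.77% of 5948 retained genes and 2.79% of all 27305 promoters. Of genes at least 1.5-fold higher as a whole, 18 of 319 (5.64%) held one, close to the share over retained genes, and of those lower 1 of 156 (0.641%). The CCAAT box, sought by its letters CCAAT on both strands, was in 16 replication promoters (64%) and 35.8% of retained genes. Of 29 mitosis promoters, 24 (82.8%) held the CCAAT box and 3 (10.3%) an E2F word. Also sought were the E-box CACGTG, the forkhead word GTAAACA and the AP-1 word TGACTCA. The E-box was in 5 replication promoters (20%), against 9.26% of retained genes, and the forkhead and AP-1 words were in 0. Of the 156 lower genes, 15 (9.62%) held the E-box. The forkhead word was in 8 (5.13%) and the AP-1 word in 6 (3.85%), against 1.92% and 2.07% of retained genes. Within the replication list, E2F words lay before genes with small and with large differences. MCM6 held 4 words, in overlapping pairs, at a difference of 0.20, and CDT1 held 1 at 0.30. MCM2 and MCM10 held 0 at 0.96 and 0.93. A link of words with the size of a difference was not tested. Shown are the 100 bases before the start of GINS2, PCNA and DTL, which hold a word, and of TIPIN, which was at least 1.5-fold higher without one, each on the strand of its gene and with the E2F word in capitals. They lie at chr16:85688955-85689054 (minus strand), chr20:5126623-5126722 (minus), chr1:212035648-212035747 (plus) and chr15:66386718-66386817 (minus).
GINS2: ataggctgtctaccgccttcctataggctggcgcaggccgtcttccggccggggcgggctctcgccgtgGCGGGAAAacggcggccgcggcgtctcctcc
PCNA: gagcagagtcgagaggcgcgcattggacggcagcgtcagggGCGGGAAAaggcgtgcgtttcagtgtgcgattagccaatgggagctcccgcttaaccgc
DTL: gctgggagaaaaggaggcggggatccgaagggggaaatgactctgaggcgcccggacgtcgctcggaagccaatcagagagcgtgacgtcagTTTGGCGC
TIPIN: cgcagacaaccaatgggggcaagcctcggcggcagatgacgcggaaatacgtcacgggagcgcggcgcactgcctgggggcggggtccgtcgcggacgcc
The word begins 31 bases before the start in GINS2, 59 in PCNA and 8 in DTL. In GINS2 and PCNA it reads GCGGGAAA, which is TTTCCCGC on the opposite strand.

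Regulators of S phase entry followed in part. Of 31 listed genes for the G1/S step, 20 were retained, and 5 (25%) of these were at least 1.5-fold higher and 0 lower. Their median was 0.45, and 5.12% of all retained genes were higher. CDC25A, the phosphatase that frees CDK2 from inhibition, was at 109 and 224 (log2 difference 1.04). The E-type cyclins CCNE2 and CCNE1 differed by 1.02 and 0.86, and the kinases CDK6 and CDK2 both by 0.59. The activating factors E2F1, E2F2 and E2F3 differed by 0.47, 0.49 and 0.57, all within 1.5-fold. CCND2, the D-type cyclin of MAF-translocated myeloma, was at 676 and 911 (log2 difference 0.43), and CDK4 was level at 829 and 827.

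Mitosis genes, in contrast, stayed mostly within 1.5-fold. Of 32 retained genes, 1 (3.1%) was past it, the spindle checkpoint gene MAD2L1 at 283 and 451 (log2 difference 0.67), where 8.01% of all retained genes were. Above 0 lay 25, with a median of 0.20. CCNB1, the cyclin that drives entry into mitosis, was at 425 and 609 (log2 difference 0.52). HMMR, a spindle protein, and ECT2, which directs the split of the cell body, differed by 0.49 and 0.44. The difference between the replication and the mitosis lists was not tested.

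DNA repair genes lay between these groups. Of 15 retained genes listed under homologous recombination, the Fanconi pathway and mismatch repair, 5 (33.3%) were at least 1.5-fold higher and 0 lower. Their median was 0.42, and 5.12% of all retained genes were higher. XRCC2, a protein of recombination repair, was at 213 and 431 (log2 difference 1.01). The helicase BRIP1 differed by 0.93 and the exonuclease EXO1 by 0.67. The list is wider than its name, and the other higher members were the uracil glycosylase UNG (0.78) and the checkpoint kinase CHEK1 (0.69). BARD1, the partner of BRCA1, was the member below 0, at 265 and 198 (log2 difference -0.42).

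Enzymes that make and salvage nucleotides, the building blocks of DNA and RNA, had 12 of 25 retained members, of 41 listed, at least 1.5-fold higher, against 5.12% of all retained genes, and 13 within 1.5-fold. None was past 1.5-fold lower, 23 lay above 0, and the median was 0.58. Of the salvage enzymes, HPRT1 was at 202 and 404 (log2 difference 0.996), ADK, adenosine kinase, at 171 and 289 (log2 difference 0.76) and PNP, purine nucleoside phosphorylase, at 173 and 282 (log2 difference 0.71). Of the purine synthesis enzymes, PPAT, PRPS1 and PFAS differed by 0.75, 0.67 and 0.66. Of the pyrimidine enzymes, DHODH was at 159 and 296 (log2 difference 0.89), UMPS and UCK2 differed by 0.60 and 0.66, and CTPS1 by 0.58, within 1.5-fold. ATIC and DTYMK, the members below 0, differed by -0.04 and -0.17. TYMS, which makes thymidylate for DNA, was at 863 and 1395 (log2 difference 0.69). SAMHD1, which breaks down deoxynucleotides, was also higher, by 0.79. Both arms of adenosine removal were thus brighter on the MIF-KO array, deamination through ADA and phosphorylation through ADK.

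Ribosome assembly factors were shifted by less and more evenly. Of 41 retained genes of 63 listed, 39 lay above 0, 7 (17.1%) were at least 1.5-fold higher and 0 lower. The median was 0.36, and 5.12% of all retained genes were higher. The nucleolar protein LYAR was at 72.9 and 129.9 (log2 difference 0.83), MRTO4 at 182 and 321 (log2 difference 0.81), and NOP16 at 136 and 231 (log2 difference 0.76). MAK16, RRP1B, BOP1 and NOC3L differed by 0.73, 0.69, 0.65 and 0.62, and a second BOP1 probe set by 0.22. The proteins of the cytosolic ribosome did not follow. Their median over 43 retained genes was -0.07, with RPL32 higher (0.73) and RPL39 and RPS15A lower (-0.95 and -0.90), and a second RPL39 probe set gave -0.06. Ribosomal protein genes have many near-identical processed copies, so single members are uncertain. MYC, a driver of ribosome assembly genes, was at 1297 and 1214, and of 8 retained RNA polymerase III genes POLR3G alone was past 1.5-fold.

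Mitochondrial import and quality control genes lay mostly on the higher side. Of 41 retained genes, 9 (22.0%) were at least 1.5-fold higher and 1 (2.44%) lower, with a median of 0.23. The shares over all retained genes were 5.12% and 2.89%. TRAP1, the HSP90 chaperone of mitochondria, was at 567 and 1202 (log2 difference 1.08), and PHB1, a prohibitin of the inner membrane, at 62.4 and 113 (log2 difference 0.86). The import components TIMM8A, TOMM5, TOMM34 and TIMM21 differed by 0.76, 0.72, 0.65 and 0.60, and the fusion and fission proteins OPA1 and DNM1L by 0.62 and 0.69. The processing peptidase subunit PMPCA differed by 0.69 on its brighter and 0.10 on its dimmer probe set. The lower member was PINK1, the kinase that marks damaged mitochondria for removal, at 94.8 and 54.7 (log2 difference -0.79). Of 73 retained mitochondrial ribosomal proteins, 6 (8.22%) were at least 1.5-fold higher, against 5.12% of all retained genes, and 0 lower. The higher ones were led by MRPL52 (1.005, from a control intensity of 21.5) and MRPL47 (0.80). Above 0 lay 57 of the 73, with a median of 0.15, against 55.1% and 0.036 over all retained genes. Genes of oxidative phosphorylation had a median of 0.01, which changed sign with scaling, and 0 of 14 were past 1.5-fold.

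Chaperones and antioxidant enzymes had members on the higher side. Of 17 retained heat-shock genes, 3 (17.6%) were at least 1.5-fold higher and 0 lower, with a median of 0.26. HSPH1 was at 209 and 406 (log2 difference 0.96), HSPB1 at 2803 and 4665 (log2 difference 0.73) and the HSP90 co-chaperone CHORDC1 at 21.9 and 41.2 (log2 difference 0.91). Of 30 retained antioxidant genes, 4 (13.3%) were higher and 1 (3.33%) lower, with a median of 0.17. Over all retained genes, 5.12% were higher and 2.89% lower. Besides PRDX1, the higher ones were the glutathione synthetase GSS (0.80), the glutaredoxin GLRX2 (0.75) and PGD (0.74), which supplies NADPH. NFE2L2 (NRF2), the factor that switches on many antioxidant genes, was on the lower side at 248 and 169 (log2 difference -0.56), within 1.5-fold.

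Genes of arginine and polyamine metabolism went both ways. Against the lower ASS1 stood 4 higher genes (25%) of 16 retained, where 5.12% of all retained genes were higher. The list median was 0.08. SLC25A15, the mitochondrial ornithine carrier, was at 43.6 and 81.5 (log2 difference 0.90). SRM, which makes spermidine, was at 2771 and 4806 (log2 difference 0.79), and SMS, which makes spermine, at 562 and 982 (log2 difference 0.81). OAT, ornithine aminotransferase, differed by 0.66. In adenosine and methyl-group handling, 3 (25%) of 12 retained genes were higher, ADA, ADK and PNP, all described above.

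On the lower side was the stress response run by ATF4, a factor induced by amino acid shortage and endoplasmic reticulum stress. Of 25 retained targets, 4 (16%) were at least 1.5-fold lower and 0 higher, with a median of -0.20. Over all retained genes, 2.89% were lower. SESN2, a leucine sensor of the mTOR pathway, was at 1179 and 703 (log2 difference -0.75). DDIT3 (CHOP), TRIB3 and STC2 differed by -0.64, -0.62 and -0.61. CTH and PHGDH, enzymes of cysteine and serine synthesis, were at -0.49 and -0.42, within 1.5-fold, and PSPH, on the same serine pathway, was at 0.46. The aminoacyl-tRNA synthetases, several of which ATF4 also drives, had a median of 0.03, which changed sign after quantile normalization.

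The unfolded protein response and secretion list had a median of -0.18, with 23 of 31 members below 0. At 1.5-fold, 6.45% were lower and 3.23% higher, against 2.89% and 5.12% of all retained genes. Past 1.5-fold were ERN1 and MZB1, a chaperone of antibody assembly at 615 and 399 (log2 difference -0.63), on the lower side, and TRAM2, a translocation protein at 586 and 922 (log2 difference 0.65), on the higher. SEL1L, of the pathway that degrades misfolded proteins, was at 1680.2 and 1222 (log2 difference -0.46), and SEC61A1, the translocation channel, at 2943 and 2194 (log2 difference -0.42). The plasma cell list had a median of -0.05 over 17 genes, with MZB1 lower and the adaptor LAX1 higher, at 69.7 and 122 (log2 difference 0.81). SDC1 (CD138), a surface protein by which plasma cells are recognised, was at 337 and 471 (log2 difference 0.48), and CD38, another, at 40.98 and 56.2 (log2 difference 0.46).

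Autophagy, by which cells digest their own parts in lysosomes, had 3 (10.3%) of 29 retained members at least 1.5-fold lower and 0 higher. Its median was -0.17, with 21 members below 0, and 2.89% of all retained genes were lower. OPTN, a receptor that hands mitochondria and microbes to autophagosomes, was at 537 and 237 (log2 difference -1.18). WDR45, which helps autophagosomes form, was at 161 and 98.4 (log2 difference -0.71). FOXO3, a transcription factor of autophagy genes, was at 74.2 and 41.2 (log2 difference -0.85) on one probe set and differed by -0.22 on the other. The cargo receptor SQSTM1 and the membrane protein GABARAPL1 were at -0.53 and -0.58, within 1.5-fold. Of 24 retained lysosome genes, 3 (12.5%) were lower and 1 (4.17%) higher, and the median was -0.17. The cathepsins CTSF and CTSO differed by -0.68 and -0.62, TFE3, a factor that switches on lysosome genes, by -0.65, and CD68 by 0.60.

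Genes that respond to glucocorticoids, drugs used against myeloma, had a median of -0.22. Of 12 retained, 4 (33.3%) were at least 1.5-fold lower and 0 higher, where 2.89% of all retained genes were lower. The 4 were TXNIP, FOXO3, the repressor KLF9 at 219 and 142 (log2 difference -0.63) and the death protein BCL2L11 (BIM) at 89.3 and 56.3 (log2 difference -0.66). FKBP5, a standard glucocorticoid target, went the other way at 39.5 and 55.9 (log2 difference 0.50), within 1.5-fold, and PER1 and DUSP1 differed by -0.29 and 0.09. TXNIP, FOXO3 and BCL2L11 are shared with the redox, autophagy and death lists.

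Genes of cell survival and death had single members past 1.5-fold. BCL2, the survival protein blocked by venetoclax, was at 763 and 369 (log2 difference -1.05). MCL1, on which most myeloma cells depend, was at 991 and 1109 (log2 difference 0.16), and BCL2A1 at 33.8 and 50.7 (log2 difference 0.59). On the death side, BCL2L11 was lower as given above, and MLKL, the executioner of necroptosis, was at 72.5 and 117 (log2 difference 0.69). The death genes BMF and BBC3 (PUMA), which oppose BCL2, differed by -0.51 and -0.50, while BAX and BID were at 0.43 and 0.52. Of 13 retained p53 targets, 1 (7.69%) was past 1.5-fold, SESN2, where 8.01% of all retained genes were, and the median was -0.20.

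Immediate early genes of the AP-1 family went both ways. JUN was lower, as was JUND at 1215 and 749.7 (log2 difference -0.70). FOS was higher at 76.3 and 153 (log2 difference 1.003), and so was EGR1 at 700.02 and 1150.1 (log2 difference 0.72). A second EGR1 probe set gave 1.08 and a second FOS probe set 0.45. The list median was 0.08 over 20 genes, of which 10% were higher and 10% lower, against 5.12% and 2.89% of all retained genes. Of 14 retained genes that report the output of the kinase ERK, DUSP5, a phosphatase that holds ERK in the nucleus, was past 1.5-fold at 259 and 523 (log2 difference 1.01), with 1.01 on its second probe set, and 12 lay above 0. DUSP6, the cytosolic counterpart, was at 494 and 728 (log2 difference 0.56), and the list median was 0.35.

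In the list of interleukin-6, JAK and STAT3 signalling, 2 of 17 retained genes were past 1.5-fold, against 8.01% of all retained genes. IL6R was higher and IL21R lower, and the remaining 15 stayed within 1.5-fold. STAT3 itself was at 571 and 583, and JAK1 at 1139 and 935. PIM2, a survival kinase of myeloma, was at 1679 and 1186 (log2 difference -0.50). The list median of 0.03 changed sign after quantile normalization. Among NF-kappaB genes, RELB, of the alternative arm, was lower at 189 and 116 (log2 difference -0.71) and BCL2A1 higher by 0.59, and the median was -0.16 over 16 genes. Of 22 retained interferon genes, IRF9 and SP110 were lower (-0.81 and -0.74), and USP18, which shuts off the interferon receptor, was higher (0.97, from a control intensity of 23.3). Their shares were 9.09% lower and 4.55% higher, against 2.89% and 5.12% of all retained genes.

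Among genes for homing to the bone marrow, GPR183 was the only one of 11 retained chemoattractant receptors past 1.5-fold, and 0 of 12 adhesion genes were, where 8.01% of all retained genes were past it in either direction, with NCAM1 at -0.56 and CD44 at 0.43. HHLA2 was likewise the only one of 11 retained checkpoint and natural killer ligands, and 0 of 8 antigen presentation genes were past it, with B2M at 1045 and 999. The other lists held 1 or 2 members past 1.5-fold or none: ETS1 (0.59) of the B cell program, DBP (-1.11) and BMAL2 (0.83) of the circadian clock, MXI1 (-0.68) of glycolysis and hypoxia, FRRS1 (-0.70) of iron handling, and 0 of 30 genes of cholesterol and fatty acid synthesis. Of 10 genes commonly used as references, 1 was past 1.5-fold, HPRT1. GAPDH and PPIA differed by 0.22 and 0.12, and PGK1 was level at 350.2 and 349.8.

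**Figure D4:**
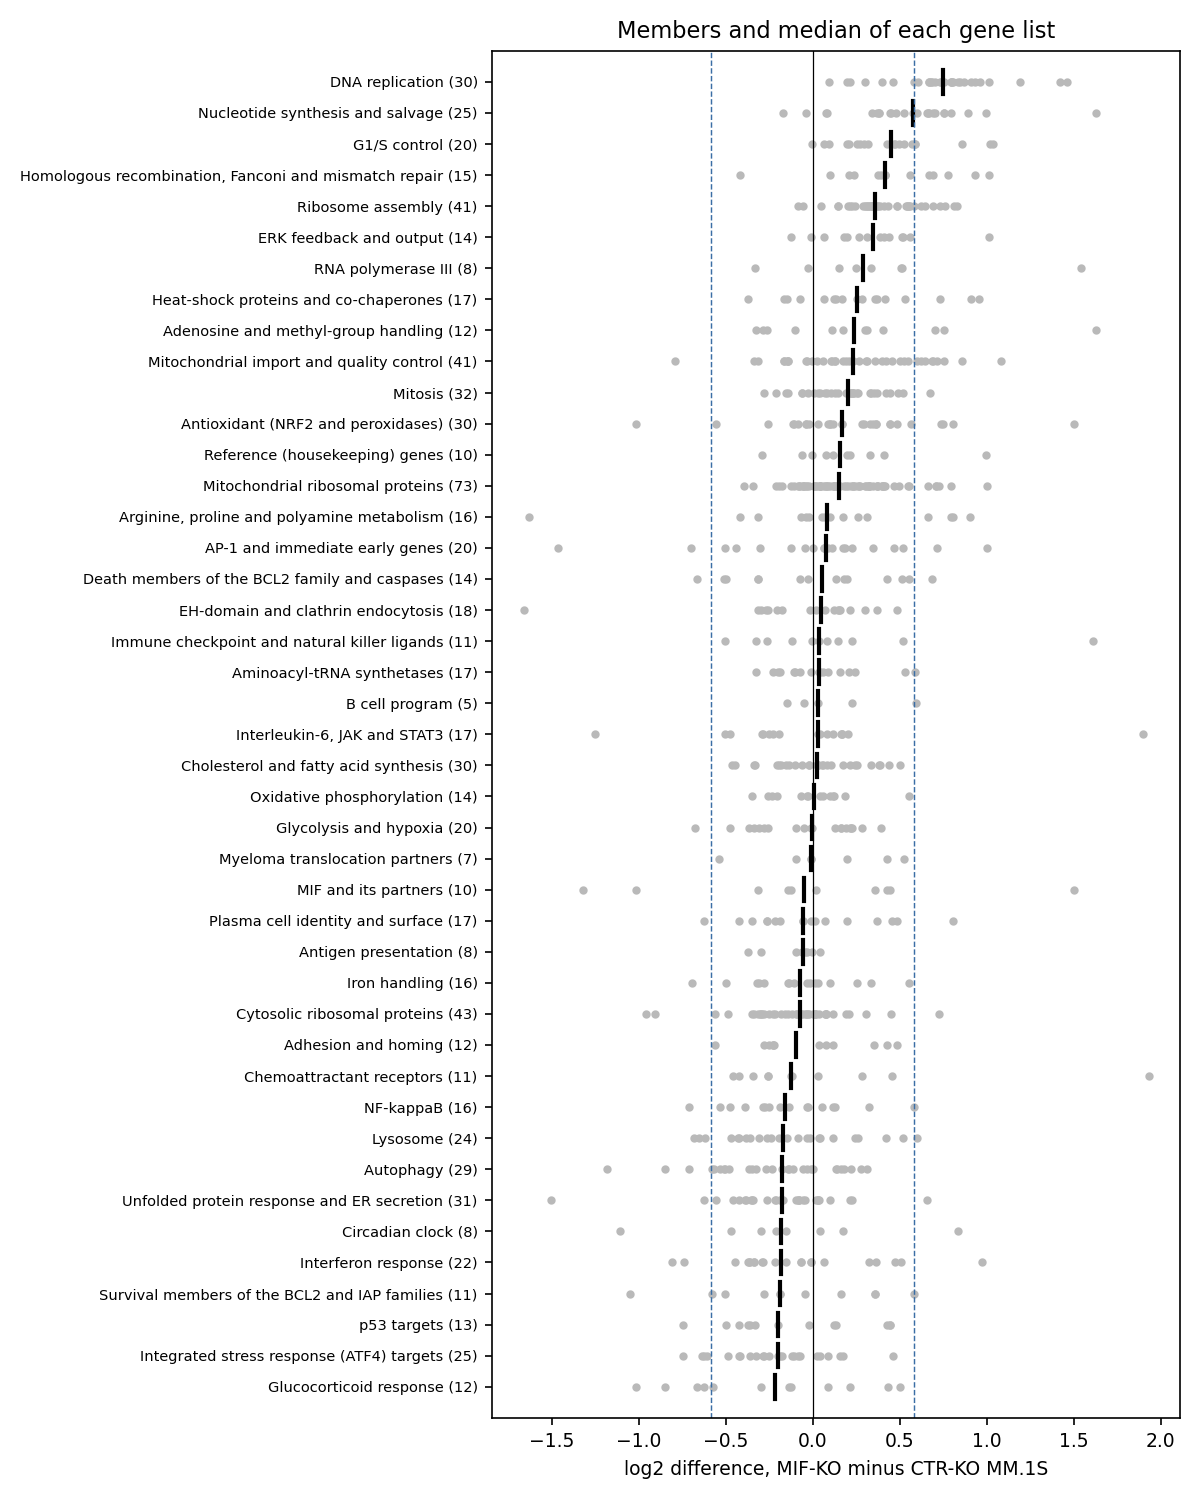
Log2 difference, MIF-KO minus CTR-KO MM.1S (horizontal axis), of the retained members (grey points) and their median (black bar) for each of the 43 gene lists, ordered by median, with the number of retained members in brackets and dashed lines at 1.5-fold. DNA replication stands at the top with a median of 0.75 and glucocorticoid response at the bottom with -0.22.

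**Figure D5:**
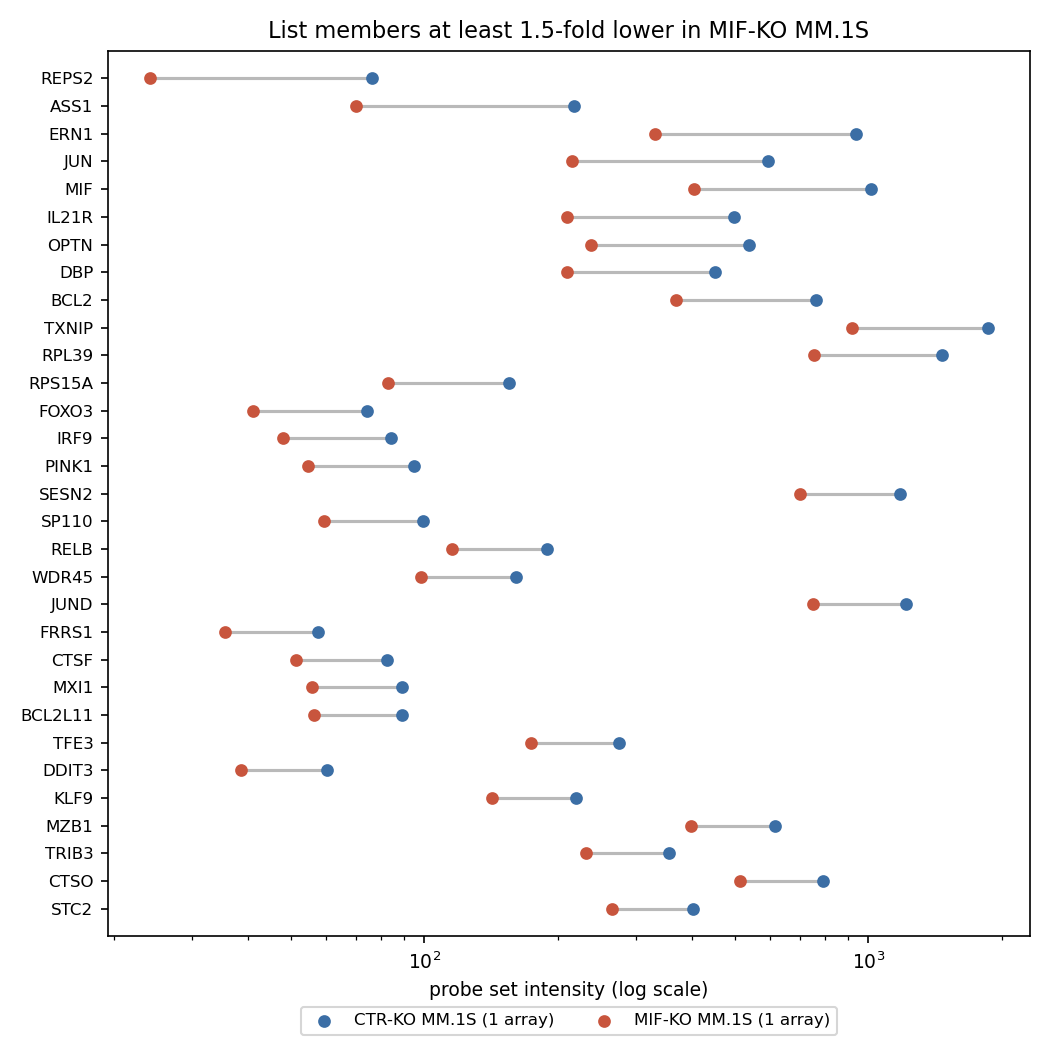
Probe set intensity (horizontal axis, log scale) of the 31 retained list members at least 1.5-fold lower in MIF-KO MM.1S (red) than in CTR-KO MM.1S (blue), 1 array each. They run from REPS2, at -1.66 on the log2 scale, to STC2, at -0.61.

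Over all 43 lists, which share members, 803 distinct genes were retained, of which 96 were at least 1.5-fold higher and 31 lower. Over all 7442 retained genes, 381 (5.12%) were higher and 215 (2.89%) lower. The 31 lower genes are spread over stress, redox, autophagy, clock and survival lists, with at most 4 in any list.

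Most of these genes had the opposite sign in ARP-1 by the titles of its arrays. Of the 381 genes at least 1.5-fold higher in MM.1S, 241 (63.3%) were at least 1.5-fold lower in ARP-1 and 2 higher, where 11.9% of all retained genes were lower. Of the 215 lower in MM.1S, 122 (56.7%) were higher in ARP-1 and 4 lower, where 10.9% of all retained genes were higher. For the replication list the medians were 0.75 in MM.1S and -0.94 in ARP-1. The pairs share no array, and with the ARP-1 descriptions in place of the titles the signs in ARP-1 turn. IL6R and GPR183 differed by -0.29 and 0.53 in ARP-1 by the titles. The difference between the lines was not tested, since each has 1 array per condition.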

How the data were processed

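RNA was measured on 4 arrays, 1 per line and condition. The authors deposited linear probe set intensities for 53617 probe sets. Per the submitters' processing notes RMA and limma were used, without a version or role. Background step, probe annotation and build: not given in the sources used here. From the deposited intensities, log2 was taken here with no pseudocount. A platform annotation gave 1 symbol for 16098 probe sets, all matched to RefSeq by Entrez ID (names from GRCh38.p14), and 37519 are unnamed here. Of several probe sets of a gene (779 genes), the one with the highest mean over the 4 arrays was used. Past 1.5-fold (0.585 on the log2 scale) a gene was counted. Arrays carry no depth, and their number limits the precision.

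Named are MIF, the 15 largest differences each way among retained genes (leaving out microRNAs, open reading frames, LINC, LOC, small nucleolar and small nuclear RNAs), list members past 1.5-fold and up to 4 others per list. Further members within 1.5-fold, named for their known role, were chosen after their values were seen. The comparison and the 43 lists were chosen with earlier results of these data known, so their counts are no independent evidence. Alternatives covered scaling, the level filter, a pseudocount and the choice of probe set. Python 3.11.15, numpy 2.4.6 and pandas 2.3.3 were used, and the counting was tested on simulated data.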

Additional observations from a re-analysis of the deposited data

Results flagged for a closer look

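Of the 30 genes with the largest differences in MM.1S, 24 had the opposite sign at 1.5-fold or more in ARP-1, 12 among the higher and 12 among the lower. The direction in ARP-1 follows the array titles, which their descriptions contradict. The difference between the lines was not tested, because each has 1 array per condition. In each pair below the first log2 difference is from MM.1S and the second from ARP-1. The median of the DNA replication list was 0.75 and -0.94.

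Among the higher genes, the pairs were 1.63 and -1.78 for ADA, 1.55 and -2.003 for POLR3G, 1.501 and -0.87 for PRDX1, and 1.34 and -1.81 for GLDC. They were 1.46 and -1.52 for DSCC1, 1.42 and -1.97 for GINS2, 1.44 and -0.94 for CDCA7, and 1.34 and -0.88 for CENPH. BRI3BP had 1.53 and -0.97, ACTL8 1.43 and -3.23, NRROS 1.33 and -1.21, and AFAP1L2 1.25 and -1.01.

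Among the lower genes, HCP5 had -1.75 and 2.75, REPS2 -1.66 and 1.33, ASS1 -1.63 and 2.62, and ERN1 -1.50 and 2.20. JUN had -1.46 and 1.49, LGALS17A -1.41 and 3.14, TLCD2 -1.29 and 0.93, and PLCL1 -1.27 and 1.38. TSPAN33 had -1.27 and 1.45, IL21R -1.25 and 0.88, CD160 -1.23 and 1.86, and TMEM140 -1.22 and 1.54.

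Probe sets without a gene name, which no comparison above uses, also differed between the MM.1S arrays. Of 9408 such probe sets at or above the retention level, 1348 were at least 1.5-fold apart, 767 (8.15%) higher and 581 (6.18%) lower. At least 4-fold, 10 were higher and 9 lower. The largest difference, 4.18 on the log2 scale for probe set 16654547, ran from an intensity of 3.96 to 71.5, and the lowest, -2.81 for probe set 16678328, from 130 to 18.5.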

How the results depend on the processing

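No paired analysis was possible because each MM.1S condition has 1 array, which also leaves no replicate to omit. The 43 list medians stayed on the same side of 1.5-fold under all 7 alternatives, but 6 list medians near 0 changed sign with a scaling and 10 with any alternative. The 30 named genes stayed past 1.5-fold with both scalings and the pseudocount. A level filter cannot move the value of a gene, and the mean of probe sets cannot move a gene with 1 probe set. Without a level filter 351 genes were at least 1.5-fold lower. With the filter at the upper quartile 227 were higher and 91 lower, and at 2-fold 24 and 18, as fewer genes are counted. With a pseudocount of 16, which damps differences at low intensity, 262 genes were at least 1.5-fold higher and 144 lower, against 381 and 215 without it. At least 2-fold, 25 were then higher and 24 lower. Of 289 genes with several probe sets above the level filter, 28 were past 1.5-fold, 27 of them with 1 direction in all probe sets and 13 past it in all.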

Other observations

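Some genes differed in MM.1S while the ARP-1 arrays lay within 1.2-fold of each other, a relation that does not depend on which ARP-1 array is the control. These were 52 of the 381 higher and 37 of the 215 lower genes, a smaller share than the 3379 of all 7442 retained genes within 1.2-fold in ARP-1, and the names here were chosen after their values were seen. PSTPIP2, an adaptor of the actin cytoskeleton, was at 69.3 in CTR-KO and 158 in MIF-KO MM.1S, a log2 difference of 1.19 against 0.11 in ARP-1. MYB, a transcription factor of blood progenitors, was at 46.8 and 87.96 (0.91 against 0.20). FOS differed by 1.003 against -0.21, and FCMR, the receptor for immunoglobulin M, by 0.80 against -0.20. On the lower side, SNN differed by -1.30 against -0.16 and the transcription factor NFIX by -1.01 against 0.12. SERP1 and MYDGF, proteins of the secretory pathway, differed by -0.78 and -0.74 against 0.22 and 0.24.

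Long noncoding and small Cajal body RNAs past 1.5-fold all lay on the lower side. Of 6837 retained protein-coding genes 369 were at least 1.5-fold higher and 174 lower. Of 251 long noncoding RNAs 0 were higher and 12 (4.78%) lower. Over all retained genes, 5.12% were higher and 2.89% lower. Of 192 retained microRNAs, 10 (5.21%) were higher and 14 (7.29%) lower. The 17 retained small Cajal body RNAs, which guide modification of spliceosomal RNAs, had 0 higher and 4 lower and a median difference of -0.32. SCARNA6 was at 143 in CTR-KO and 51.7 in MIF-KO MM.1S, SCARNA5 at 173 and 72.5, and SCARNA7 at 311 and 146, names chosen after their values were seen.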
